A study of Mus musculus with 11 samples.

Results

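The genes described here write, erase or guard DNA methylation: the DNA methyltransferases *Dnmt1*, *Dnmt3a* and *Dnmt3b*, the dioxygenases *Tet1*, *Tet2* and *Tet3*, the maintenance factor *Uhrf1*, and *Trim28* and *Zfp57*, which protect imprints. Their rows were found by gene symbol, and they were chosen in view of the question whether *Nnat*, an imprinted gene, is expressed in some beta cells and not others according to methylation of its promoter. They are 9 of the 55401 genes counted, and 9 of 9 passed the filter on low counts, with *Zfp57* passing through the non-beta libraries only.

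RNA-seq was performed on islet cells of male C57BL6/J mice, fed chow and aged 10 weeks according to their labels. The paper's Results give a younger age for the sorted beta cells, and its supplementary methods 10 weeks or older unless otherwise stated. All mice carried RIP-Cre, STOP-tdTomato and Nnat-EGFP, so that Cre under the rat insulin promoter switched on tdTomato in beta cells, and a transgene with *Nnat* regulatory sequence drove eGFP. By FACS, beta cells were split into libraries labelled NNAT-positive (*n*=4 mice) and NNAT-negative (*n*=4), and non-beta cells (the tdTomato-negative islet cells, a mixture of cell types) gave 3 libraries, each from 20 ng of total RNA selected for poly(A). Each of mice 1 to 3 contributed every fraction, whereas no non-beta library of mouse 4 was analysed. The sort reads the reporter and not the NNAT protein, and in bulk RNA fewer cells of a type and less RNA per cell cannot be told apart.

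DNMT1 copies methylation to the new strand at replication, brought there by UHRF1, which recognises CpG sites methylated on a single strand. DNMT3A and DNMT3B methylate unmethylated DNA, and TET enzymes oxidise methylated cytosine as a step towards its removal. At imprinted loci ZFP57 binds a methylated hexamer and recruits TRIM28, a scaffold for repressive complexes that keep the parental mark. In beta cells DNMT3A is known for silencing genes during postnatal maturation.

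Total counts ranged from 30420352 to 43238376 over the 11 libraries. Levels are given as CPM, a gene's share of the library's counts scaled up and corrected by TMM, a method that evens out library composition, and 3 counts, taken as the floor of detection, corresponded to between 0.0649 and 0.102 CPM (counting error only). Insulin transcripts took between 17.8% and 34.4% of counts in beta cell libraries and between 0.970% and 2.34% in non-beta libraries. All 9 beta cell markers were higher in beta cells, and all 6 alpha, 4 delta, 2 PP, 6 endothelial, 6 leukocyte, 6 acinar and 6 stromal markers were lower, as were 4 of 5 ductal markers (edgeR, adjusted *p* below 0.01). The check of the beta cell labels went against them. *Nnat* was at 50.5, 46.4, 46.0 and 101 CPM in mice 1 to 4 under the NNAT-positive label and at 74.8, 80.8, 66.5 and 153 CPM under the NNAT-negative label. In 4 of 4 mice its level under the NNAT-positive label was lower, at between 0.574 and 0.693 times the level under the NNAT-negative label (edgeR, log2 fold change −0.62, adjusted *p* 0.444, not called). The supplementary table of the paper also names 8 of the 8 beta cell columns the other way round. The labels are used here as names only, and exchanging them changes only the sign of each difference between the beta cell fractions.

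The sequences shown here are those on which the enzymes could act at *Nnat*, and the promoters of *Dnmt3a* and *Zfp57*, whose edgeR calls were higher and lower in beta than in non-beta cells. Each promoter is the 250 bases before a RefSeq transcription start (GRCm38.p6), read 5′ to 3′ on the strand of its gene, with CpG sites in capitals. For *Dnmt3a* and *Zfp57* the most upstream RefSeq start is shown.
Nnat promoter, chr2:157559828-157560077, plus strand: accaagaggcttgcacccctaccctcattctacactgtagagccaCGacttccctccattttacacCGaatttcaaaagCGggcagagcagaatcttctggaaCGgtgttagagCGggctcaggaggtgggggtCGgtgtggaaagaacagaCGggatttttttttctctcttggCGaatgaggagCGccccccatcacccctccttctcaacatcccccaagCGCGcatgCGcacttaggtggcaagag
Dnmt3a promoter, chr12:3806730-3806979, plus strand: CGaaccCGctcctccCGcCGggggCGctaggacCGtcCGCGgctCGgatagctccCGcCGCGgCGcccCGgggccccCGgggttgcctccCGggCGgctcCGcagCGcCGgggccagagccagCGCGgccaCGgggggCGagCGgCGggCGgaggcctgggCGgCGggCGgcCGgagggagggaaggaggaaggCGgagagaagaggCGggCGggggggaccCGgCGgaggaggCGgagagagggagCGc
Zfp57 promoter, chr17:37000913-37001162, plus strand: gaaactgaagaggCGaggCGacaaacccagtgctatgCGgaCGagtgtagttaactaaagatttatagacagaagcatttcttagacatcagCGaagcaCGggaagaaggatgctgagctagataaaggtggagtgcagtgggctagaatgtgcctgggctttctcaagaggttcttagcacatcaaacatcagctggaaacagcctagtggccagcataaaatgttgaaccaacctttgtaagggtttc
ZFP57 hexamer in the first exon of Nnat, chr2:157560095-157560120, plus strand, hexamer in capitals: caccggggctGCGGCAttgcgcccag

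The *Nnat* promoter held 12 CpG sites in these 250 bases, more than 66.5% of the 32851 RefSeq windows, whose median was 6. It lies inside *Blcap*, a gene on the opposite strand, and overlaps an exon of a non-coding *Blcap* transcript. The *Dnmt3a* window held 38 CpG sites, more than 98.1% of windows, and lies within the *Dnmt3a* gene as annotated by GENCODE, in an intron of transcripts that start farther upstream. The *Zfp57* window held 6 and has no annotated gene over it. The hexamer searched for ZFP57 was TGCCGC on both strands (GCGGCA on the plus strand as printed), over 300 bases from 250 before to 50 after each start. It was found at base 28 after the *Nnat* start, and in 4 of 16 windows of the genes described here, of *Dnmt3a*, *Tet3* and *Trim28*, against 11.6% of all windows. The *Dnmt3a* windows with a match overlap and share a hexamer, so the same site was counted in each of them. These matches describe the sequence only. Methylation of these sites was not analysed here. The forward bisulphite primer that the paper gives for the *Nnat* promoter matches, once converted, the last bases of the printed window. The paper's assay therefore began after the 12 CpG sites printed here.

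*Dnmt3a* was 1.66 times as high in beta cells as in non-beta cells, and *Dnmt1* was lower, at 0.684 times. *Uhrf1* had a larger fitted difference, with every non-beta library above every beta cell library, but missed the threshold. Calls at an adjusted *p* below 0.01 numbered 3 of 9 (1 higher and 2 lower) by edgeR's quasi-likelihood test with the mouse as a block, against 41.1% of all 17424 tested genes (17.2% higher, 23.9% lower). *Zfp57*, one of the 2 called lower, entered the test only through the non-beta libraries in which it was high, so its call describes the counts and supports nothing more. With RLE scaling *Tet1* and *Trim28* were also called, 1 gene higher and 4 lower, and with DESeq2 1 was higher and 5 lower. Of all tested genes RLE scaling called 2639 higher and 4484 lower, and DESeq2 3360 higher and 5189 lower. The median log2 fold change of the 9 genes was −0.29 and that of all tested genes −0.10. The comparison takes the mean of both beta cell fractions, and with the block it rests on mice 1 to 3.

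**Figure D1:**
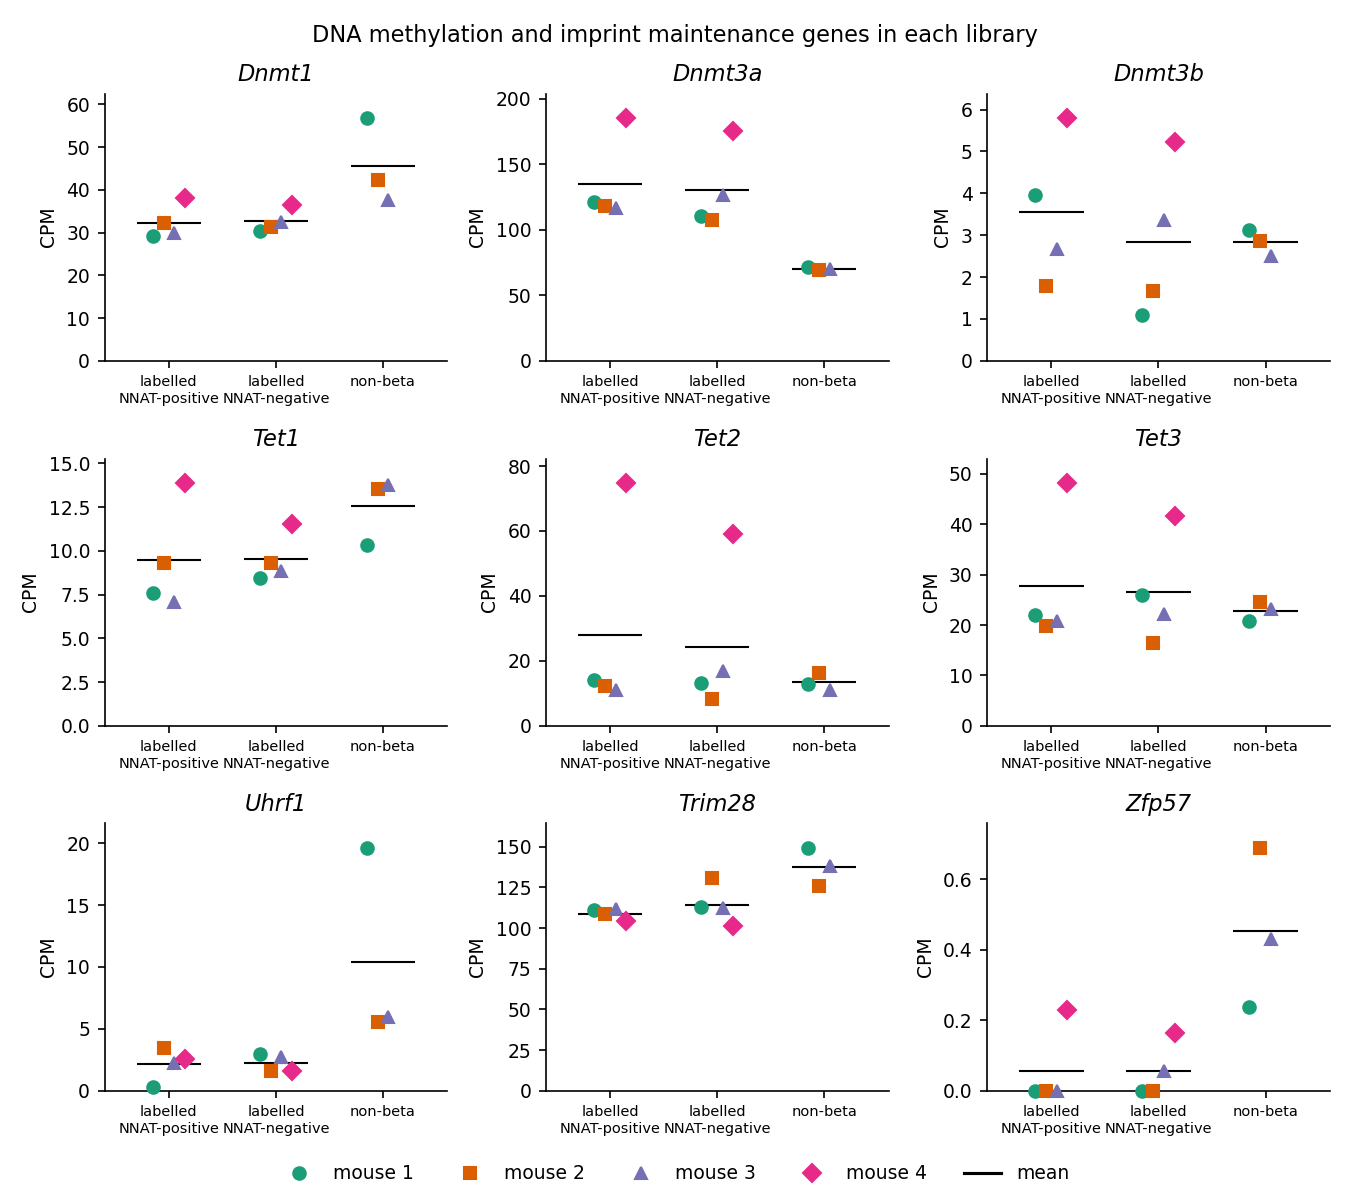
Level (CPM, linear axis from 0) of each gene in every library, by sorted fraction as labelled, with the mouse as colour and marker and the fraction mean as a line. *Dnmt3a* is above 107 CPM in the 8 beta cell libraries and at most 71.4 CPM in the 3 non-beta libraries. Mouse 4 stands highest among beta cell libraries for 7 of the 9 genes, against 18.7% of all tested genes.

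*Dnmt3a*, the main de novo methyltransferase of these libraries, was at 121, 118, 117 and 186 CPM in libraries labelled NNAT-positive of mice 1 to 4 and at 111, 107, 126 and 176 CPM in those labelled NNAT-negative. In the non-beta libraries of mice 1 to 3 it was at 71.4, 69.5 and 69.8 CPM. The beta and non-beta libraries did not overlap, the non-beta libraries lay close together, and both libraries of mouse 4 stood above the others. Its log2 fold change was 0.73 (SE 0.07, 95% interval 0.57 to 0.90, edgeR adjusted *p* 1.61e-05), higher in 3 of 3 mice, with differences of 0.70 to 0.80 within a mouse. Without mouse 4 it was 0.74 (edgeR adjusted *p* 5.2e-05). Among all tested genes, 16.5% had every beta cell library above every non-beta library. *Dnmt3a* shares 133 exonic bases with the antisense gene *Dnmt3aos*.

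*Dnmt1*, which maintains methylation through replication, was at 29.1, 32.2, 30.0 and 38.0 CPM in libraries labelled NNAT-positive and at 30.3, 31.4, 32.5 and 36.3 CPM in those labelled NNAT-negative. It was at 56.8, 42.2 and 37.7 CPM in non-beta cells of mice 1, 2 and 3. The lowest non-beta library lay just under the highest beta cell library, which was from mouse 4. In the edgeR fit the log2 fold change was −0.55 (SE 0.12, 95% interval −0.82 to −0.28, edgeR adjusted *p* 0.00305), lower in beta cells in 3 of 3 mice. Without mouse 1, whose non-beta library was the highest, it was −0.34 and no longer called (edgeR adjusted *p* 0.0329).

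*Dnmt3b*, the other de novo enzyme, was scarce. It was at 3.96, 1.78, 2.67 and 5.80 CPM in libraries labelled NNAT-positive, at 1.09, 1.67, 3.36 and 5.22 CPM in those labelled NNAT-negative and at 3.11, 2.86 and 2.50 CPM in non-beta cells. The fractions overlapped throughout, with beta cell values on both sides of the non-beta values. The log2 fold change against non-beta cells was −0.29 (95% interval −1.21 to 0.63, edgeR adjusted *p* 0.594).

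Levels per kilobase of exon allow the 3 methyltransferases to be set side by side. The length used was that of all annotated exons of a gene merged, and the lengths of the transcripts present were not measured. In beta cells *Dnmt3a* was at 7.97 ± 1.82, *Dnmt1* at 4.40 ± 0.425 and *Dnmt3b* at 0.626 ± 0.336 CPM per kilobase (mean ± SD, *n*=8 libraries of 4 mice). In non-beta cells the order of the first pair turned on this scale, with *Dnmt1* at 6.18 ± 1.36 and *Dnmt3a* at 4.22 ± 0.0600 CPM per kilobase (*n*=3), and *Dnmt3b* at 0.553 ± 0.0603. In CPM *Dnmt3a* was above *Dnmt1* in every library. The turned order and the shares below thus depend on the exon lengths used (16642 bases for *Dnmt3a*, 7377 for *Dnmt1*). The ratio of *Dnmt3a* to *Dnmt1* per kilobase was between 1.52 and 2.16 in the 8 beta cell libraries and between 0.557 and 0.821 in the 3 non-beta libraries, without overlap. *Dnmt3a* thus made up 58.5% to 60.6% of the methyltransferase level in beta cell libraries of mice 1 to 3, 63.9% to 64.0% in mouse 4 and 34.0% to 42.8% in non-beta cells. This ratio joins both called genes and adds no separate test.

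**Figure D2:**
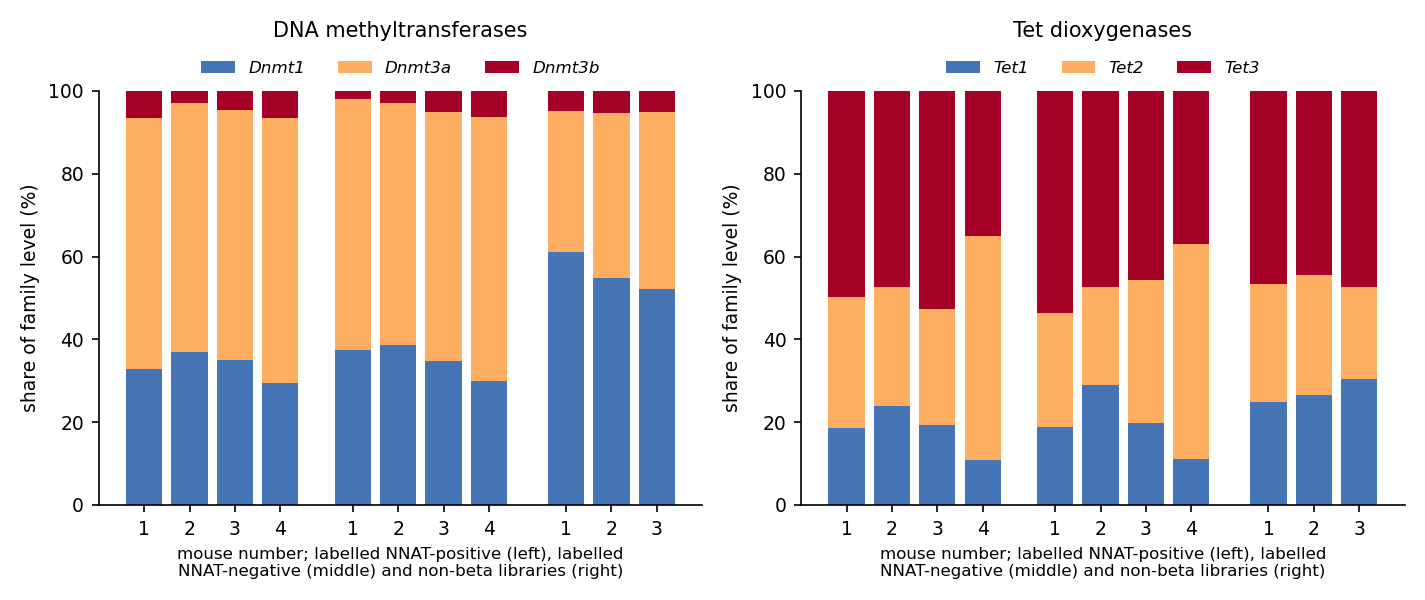
Share (%) of the summed CPM per kilobase of exon (all annotated exons merged) that each DNA methyltransferase (left panel) and each Tet dioxygenase (right panel) took in every library. *Dnmt3a* takes 58.5% to 64.0% of the methyltransferase level in beta cell libraries and 34.0% to 42.8% in non-beta libraries, and *Tet2* takes 52.0% and 53.9% of the dioxygenase level in mouse 4.

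By edgeR 0 of the 3 Tet genes were called between beta and non-beta cells, 1 of them (*Tet1*) had an unadjusted *p* below 0.05, and DESeq2 called *Tet1*. *Tet1*, the least abundant dioxygenase per kilobase in beta cells, was at 7.61, 9.33, 7.09 and 13.9 CPM in libraries labelled NNAT-positive and at 8.43, 9.29, 8.85 and 11.5 CPM in those labelled NNAT-negative. It was at 10.3, 13.5 and 13.8 CPM in non-beta cells. Beta cell libraries of mice 1 to 3 lay below every non-beta library, while those of mouse 4 lay among and above them. The log2 fold change was −0.57 (95% interval −0.93 to −0.21), lower in 3 of 3 mice, with an edgeR adjusted *p* of 0.0132 that misses the threshold. It was called with DESeq2 (adjusted *p* 0.000207), with RLE scaling (0.00693) and with hormone genes left out (0.00756), and over the 9 refits the adjusted *p* ranged up to 0.157.

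*Tet2*, whose protein lacks the CpG-binding CXXC domain that *Cxxc4* encodes separately, was at 14.0, 12.2 and 11.1 CPM in mice 1 to 3 but 74.8 CPM in mouse 4 among the libraries labelled NNAT-positive. In those labelled NNAT-negative it was at 13.3, 8.25 and 17.0 CPM in mice 1 to 3 and 59.1 CPM in mouse 4, and in non-beta cells at 12.9, 16.3 and 10.9 CPM. Outside mouse 4 the fractions overlapped. The blocked log2 fold change was −0.09 (95% interval −0.58 to 0.40, edgeR adjusted *p* 0.765). Without the block, which lets mouse 4 enter the comparison, it was 0.97 (edgeR adjusted *p* 0.296). *Tet2* shares 43 exonic bases with the antisense gene *Gm42567*.

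*Tet3*, the third dioxygenase, was at 22.0, 19.9, 20.8 and 48.2 CPM in libraries labelled NNAT-positive, at 25.9, 16.4, 22.1 and 41.6 CPM in those labelled NNAT-negative and at 20.9, 24.6 and 23.1 CPM in non-beta cells. Again the fractions overlapped except for mouse 4. Its blocked log2 fold change was −0.12 (95% interval −0.43 to 0.19, edgeR adjusted *p* 0.499). Per kilobase, *Tet3* made up 45.7% to 53.7% of the dioxygenase level in beta cells of mice 1 to 3 and 44.4% to 47.4% in non-beta cells, where *Tet2* and *Tet1* shared the rest.

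*Uhrf1*, the partner of DNMT1 at the replication fork, was at 0.337, 3.45, 2.25 and 2.58 CPM in libraries labelled NNAT-positive and at 2.97, 1.61, 2.75 and 1.61 CPM in those labelled NNAT-negative. In non-beta cells of mice 1, 2 and 3 it was at 19.6, 5.56 and 5.94 CPM. Every non-beta library lay above every beta cell library, as for 26.2% of all tested genes, and the non-beta library of mouse 1 stood apart. The log2 fold change was −2.09 (95% interval −3.56 to −0.62), lower in beta cells in 3 of 3 mice, with an edgeR adjusted *p* of 0.0218 that misses the threshold. DESeq2 gave −2.17 with an adjusted *p* of 0.0015. Without mouse 1 the edgeR value was −1.20 (adjusted *p* 0.0391).

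The non-beta library of mouse 1 was the highest of the 3 for each of 18 proliferation genes, against 34.9% of all tested genes. Their summed level was 529 CPM there, 214 and 176 CPM in the other non-beta libraries and 97.7 to 158 CPM in beta cells. *Mki67*, a marker of cycling cells, was at 69.6, 19.2 and 12.5 CPM in the non-beta libraries of mice 1, 2 and 3 and at 9.22 to 25.4 CPM in beta cells. *Top2a*, the mitotic topoisomerase, was at 83.9, 23.3 and 18.3 CPM and at 11.8 to 31.0 CPM. Neither was called between beta and non-beta cells (edgeR adjusted *p* 0.21 and 0.179). *Mcm2*, a subunit of the replicative helicase, was at 28.4, 18.0 and 18.9 CPM and at 9.90 to 20.1 CPM (edgeR adjusted *p* 0.0295). The same library was highest for 6 of 6 leukocyte markers (summed 879 CPM against 360 and 399) and for 6 of 6 stromal markers (6916 CPM against 2882 and 3929). The part of these cells in the levels of *Uhrf1* and *Dnmt1* was not tested.

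*Trim28*, the scaffold that ZFP57 and other KRAB zinc finger proteins recruit, was the most abundant of the 9 genes per kilobase, at 26.8 ± 2.13 CPM per kilobase in beta cells (*n*=8) and 33.1 ± 2.86 in non-beta cells (*n*=3). It was at 111, 109, 111 and 104 CPM in libraries labelled NNAT-positive, at 113, 131, 113 and 101 CPM in those labelled NNAT-negative and at 149, 126 and 138 CPM in non-beta cells. The fractions overlapped through mouse 2, where a beta cell library exceeded the non-beta library. The log2 fold change was −0.27 (95% interval −0.46 to −0.08), lower in 3 of 3 mice, with an edgeR adjusted *p* of 0.0223 that misses the threshold.

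*Zfp57*, the imprint guardian that reads the methylated hexamer, was nearly undetected in beta cells. It had 0, 0, 0 and 10 counts in the libraries labelled NNAT-positive of mice 1 to 4 and 0, 0, 2 and 6 counts in those labelled NNAT-negative, so that 5 of 8 beta cell libraries had none. Non-beta cells had 11, 26 and 16 counts, or 0.238, 0.689 and 0.430 CPM. Counts of 0 leave room for up to the floor of 3 counts in a library. In mice 1 to 3 together, 2 counts in 6 beta cell libraries stood against 53 in 3 non-beta libraries. The beta cell libraries of mouse 4 had 16 counts together. The edgeR adjusted *p* was 0.00648 for a gene that the filter kept only because of its non-beta counts. Its fitted fold change depends on the prior count. In 8 refits the adjusted *p* ran from 0.00081 to 0.0891 and was below 0.01 in 2, and it was above 0.01 without each mouse in turn. Beta cells of mouse 4 had more counts than those of the other mice, and mouse 4 had no non-beta library to compare them with.

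**Figure D3:**
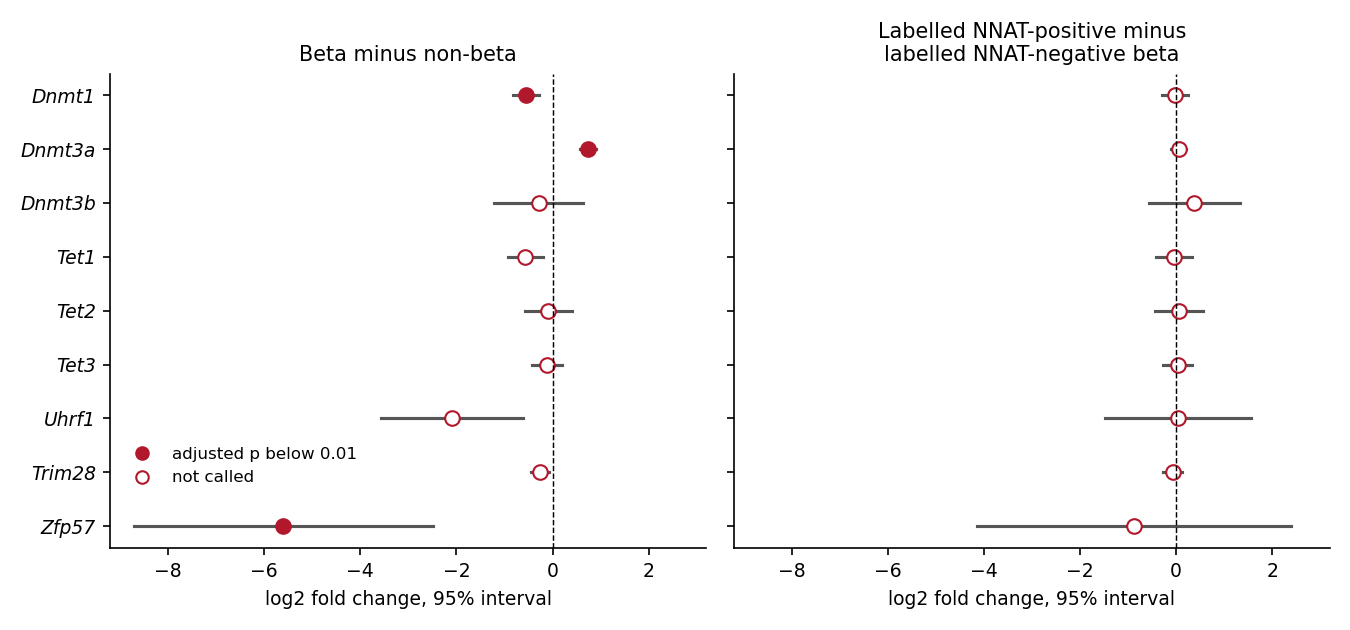
Log2 fold change (point) with its 95% interval (line) for each gene from edgeR's quasi-likelihood fit, beta minus non-beta cells (left panel) and libraries labelled NNAT-positive minus those labelled NNAT-negative (right panel). Filled points are called at an adjusted *p* below 0.01: 3 genes on the left and 0 on the right, where every interval spans 0.

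Each beta cell fraction was also set against the same non-beta libraries, so that both comparisons share their controls. *Dnmt3a* and *Dnmt1* were called in each, 2 of 9 genes, 1 higher and 1 lower. Of tested genes 34.8% were called for the NNAT-positive label (15.8% higher, 19.1% lower) and 36.8% for the NNAT-negative label (15.6% higher, 21.3% lower). *Dnmt3a* had a log2 fold change of 0.76 (edgeR adjusted *p* 3.27e-05) with the first and 0.70 (5.02e-05) with the second. *Dnmt1* had −0.56 (0.00675) and −0.54 (0.00756), and its call was lost in each without the block (0.0217 and 0.0238) and without any 1 of the 4 mice.

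Between the beta cell fractions themselves no difference was detected for these genes. By edgeR, 0 of 9 were called and 0 had an unadjusted *p* below 0.05, against 0.0517% and 5.56% of tested genes, and DESeq2 called 0. The adjusted *p* values were 0.956 or higher. The values in each mouse, given above, did not keep to a single direction for any of these genes. How often this holds over all tested genes was not counted. For *Zfp57* the counts were 0 in both fractions of mice 1 and 2, so its direction there is not defined. No gene had non-overlapping fractions, against 1.72% of tested genes with the NNAT-positive label above and 0.339% with it below.

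The intervals bound what could have been missed. For *Dnmt3a* the library labelled NNAT-positive differed by 0.06 on the log2 scale (95% interval −0.10 to 0.21), or 3.92% (−6.92% to 16.0%), and was higher in 3 of 4 mice. *Trim28* differed by −0.07 (−0.26 to 0.12), *Dnmt1* by −0.02 (−0.29 to 0.25), *Tet3* by 0.03 (−0.27 to 0.34) and *Tet1* by −0.04 (−0.41 to 0.33). *Tet2* differed by 0.06 (−0.43 to 0.55). The scarce genes were bounded loosely, with *Dnmt3b* at 0.38 (−0.56 to 1.33), *Uhrf1* at 0.04 (−1.48 to 1.57) and *Zfp57* at −0.88 (−4.14 to 2.38). A 2-fold rise of *Dnmt3b*, and a 2-fold difference of *Uhrf1* or *Zfp57* either way, lay inside these intervals. Markers of other endocrine cells had higher means in the libraries labelled NNAT-positive for 6 of 6 alpha genes (summed 2818 to 4077 CPM against 1587 to 2486), 4 of 4 delta genes (1403 to 2490 against 543 to 1046) and 2 of 2 PP genes (299.7 to 421 against 89.0 to 159). By edgeR 1 delta and 2 PP genes were among the 9 genes called between the fractions. Means were also higher for 6 of 6 leukocyte, 6 of 6 acinar, 5 of 6 endothelial, 5 of 6 stromal and 3 of 5 ductal markers, with 0 called. Summed levels of these lists overlapped between the fractions, at 8.82 to 1962 CPM against 45.9 to 425 for acinar markers. Leukocyte (1.01 to 7.36 against 0 to 1.59) and stromal sums (1.39 to 7.11 against 0.0913 to 2.46) were low. The share of all tested genes with a higher mean under that label was not counted. The part of these other cells in the values of the 9 genes was not tested.

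Mouse 4 stood apart. Both of its beta cell libraries were above the other 6 for *Dnmt1*, *Dnmt3a*, *Dnmt3b*, *Tet1*, *Tet2*, *Tet3* and *Zfp57*, 7 of 9 genes against 18.7% of tested genes, and below them for *Trim28*, against 15.8%. Mean levels in mouse 4 were 5.30 times those of mice 1 to 3 for *Tet2*, 2.28 times for *Dnmt3b*, 2.12 times for *Tet3*, 1.55 times for *Dnmt3a*, 1.51 times for *Tet1* and 1.20 times for *Dnmt1*. *Uhrf1*, at 0.941 times, overlapped. The difference for *Tet2*, 2.42 on the log2 CPM scale, was at percentile 96.8 of all tested genes, and that of *Dnmt1*, 0.27, at percentile 65.4. With 1 such mouse the difference has no replicate and was given no test.

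**Figure D4:**
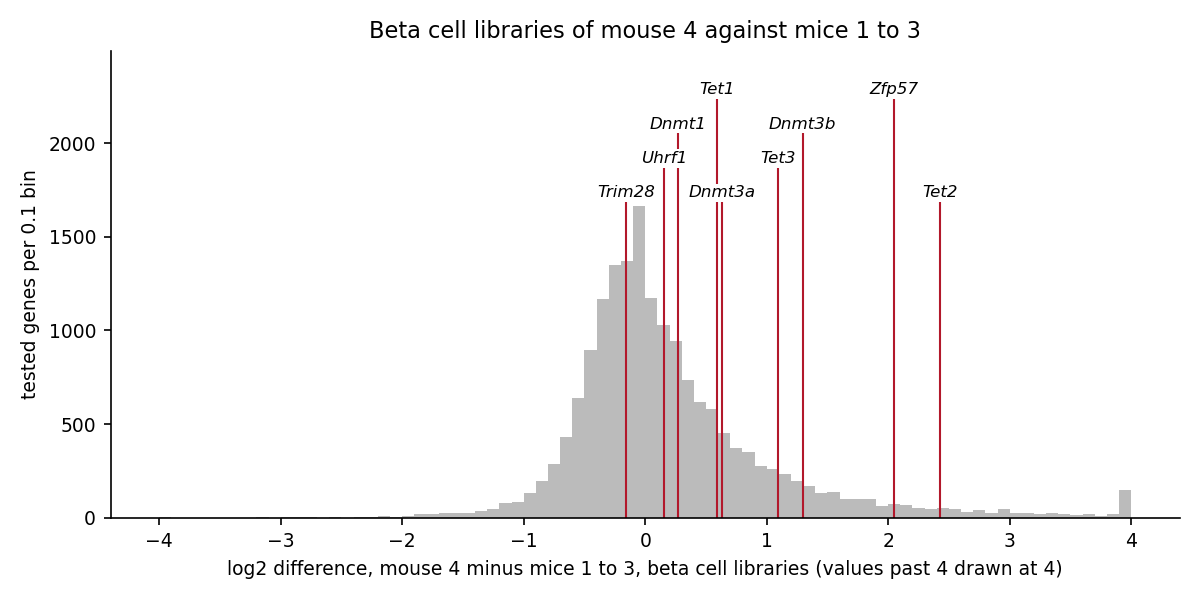
Difference in log2 CPM between the beta cell libraries of mouse 4 (*n*=2) and of mice 1 to 3 (*n*=6) for all 17424 tested genes (grey histogram, values past 4 on either side drawn at 4) with the 9 genes as red lines. *Tet2* (2.42) and *Zfp57* (2.05) lie in the right tail and *Trim28* (−0.16) on the left.

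Other transcripts moved with mouse 4. *Malat1*, a nuclear long non-coding RNA, was at 1593 to 1985 CPM there and at 37.3 to 87.9 CPM in beta cells of mice 1 to 3. *Neat1*, the scaffold of paraspeckles, was at 330 to 389 CPM against 15.2 to 20.6, and *Meg3*, an imprinted non-coding RNA, at 1054 to 1209 CPM against 18.6 to 40.5. These RNAs were picked with their values already known. The median log2 difference was 1.45 over 361 genes of the GENCODE class TEC (unverified transcripts) and 0.01 over all tested genes. *Ins2* was lower, at 115719 to 118397 CPM against 180125 to 277782. Their part in the levels of the methylation genes was not tested.

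The genes that work with these enzymes were described in 5 lists, of which 64 of 69 genes were tested. Between beta and non-beta cells 9 were called higher and 11 lower by edgeR (20 of 64, against 41.1% of tested genes), and 44 were not called. Their median log2 fold change was −0.10, the same as that of all tested genes to 2 decimals. Between the beta cell fractions 0 of 64 were called, and 3 had an unadjusted *p* below 0.05, against 5.56% of tested genes. The counts by list that follow stand against 17.2% of tested genes called higher and 23.9% called lower. The lists were chosen with earlier results of these data known.

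Among partners of the methyltransferases, 4 of 11 were lower in beta cells (23.9% of tested genes) and 0 higher (17.2%), with a median log2 fold change of −0.33. *Cdca7l*, a relative of the chromatin remodelling partner CDCA7, was at 12.1, 6.44 and 8.34 CPM in non-beta cells of mice 1 to 3 and at 0.169 to 0.731 CPM over the 8 beta cell libraries. Its log2 fold change was −4.46 (SE 0.51, edgeR adjusted *p* 3.84e-05). *Pcna*, the sliding clamp to which DNMT1 binds, was at 54.8, 35.6 and 35.3 CPM in non-beta cells and at 25.1 to 37.2 CPM in beta cells (log2 fold change −0.60, SE 0.14, edgeR adjusted *p* 0.0053). As with *Uhrf1* and *Dnmt1*, mouse 1 gave the highest non-beta value of both.

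Among 15 oxidation and repair partners 4 were higher and 2 lower, near the 41.1% of tested genes called either way (median 0.26). *Cxxc4*, which encodes a CXXC protein that binds TET2, was at 53.0, 66.0 and 64.9 CPM in non-beta cells and at 102 to 149 CPM in beta cells, a log2 fold change of 1.12 (SE 0.12, edgeR adjusted *p* 2.3e-05). *Gadd45b*, a stress-induced gene linked to demethylation, was at 71.0, 54.6 and 61.0 CPM in non-beta cells and at 10.3 to 29.1 CPM in beta cells, a log2 fold change of −2.32 (SE 0.09, edgeR adjusted *p* 2.15e-08). Neither gene's beta and non-beta libraries overlapped, as for 16.5% of all tested genes with beta cells above and 26.2% with them below. Both genes were named for their small *p* in this same comparison, so the separation adds nothing to it.

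Among 14 genes of methyl donor supply, the pathway that makes S-adenosylmethionine, 4 were higher and 3 lower (median −0.15), against 17.2% and 23.9% of tested genes. *Mthfd1*, a folate cycle enzyme, was at 61.4, 62.8 and 65.9 CPM in non-beta cells and at 150.3 to 166 CPM in beta cells, 2.51 times as high (edgeR adjusted *p* 2.18e-07). *Ahcyl2*, related to the hydrolase of S-adenosylhomocysteine, was at 93.8, 98.8 and 103 CPM in non-beta cells and at 117 to 178 CPM in beta cells (1.66 times, edgeR adjusted *p* 2.09e-05). *Mat2a*, which encodes an S-adenosylmethionine synthetase, was at 65.9, 48.5 and 41.0 CPM in non-beta cells and at 18.5 to 60.5 CPM in beta cells. These ranges overlapped (log2 fold change −1.09, SE 0.16, edgeR adjusted *p* 0.000202). *Mat1a*, added here as another synthetase gene of this list, was more abundant. Its mean was 117 CPM in beta cells and 151 CPM in non-beta cells, and it was not called (edgeR adjusted *p* 0.0699).

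Of 8 readers of methylated CpG sites 1 was higher and 1 lower (median −0.13). Among 16 partners in imprint protection and KRAB repression, 0 were higher and 1 was lower (median −0.06). Of 18 proliferation genes 6 were lower in beta cells and 0 higher (median −0.93), against 23.9% and 17.2% of tested genes.

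**Figure D5:**
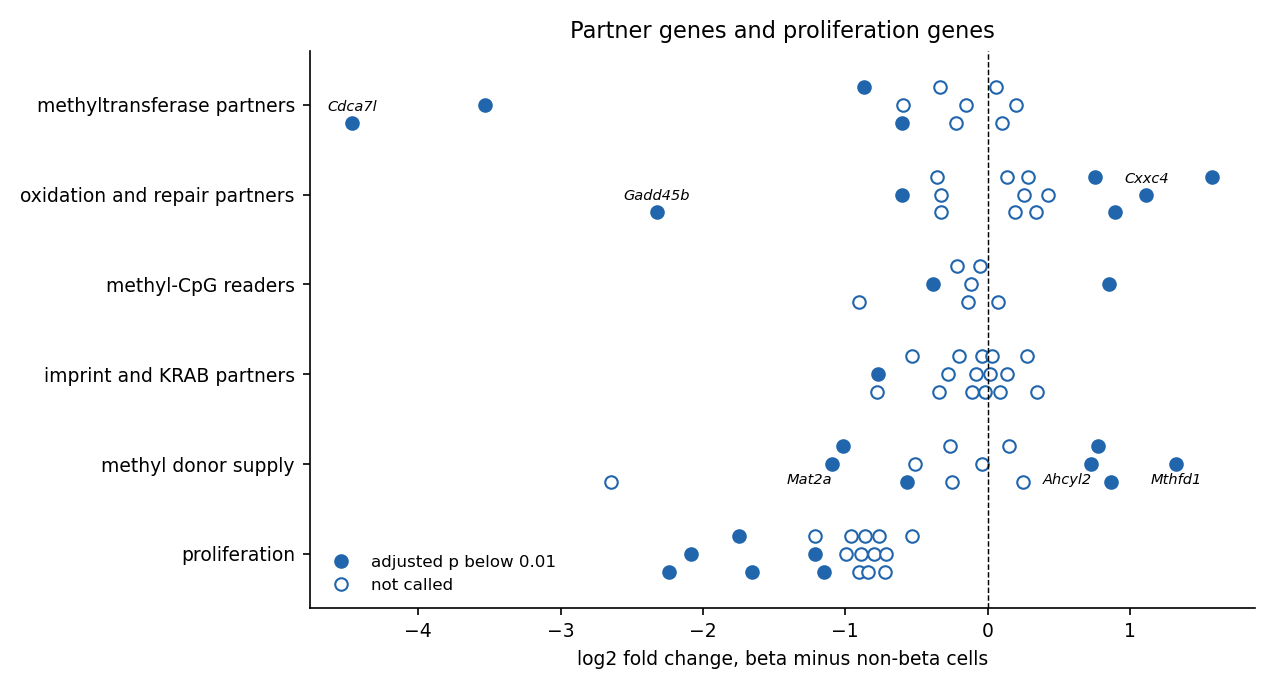
Log2 fold change, beta minus non-beta cells, of each tested partner gene and proliferation gene from edgeR's quasi-likelihood fit, by list, with called genes (adjusted *p* below 0.01) filled. Called genes lie on both sides of 0 for oxidation and repair, methyl-CpG readers and methyl donor supply, and only below 0 for methyltransferase partners, imprint and KRAB partners and proliferation.

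The genes most like each one were found by Pearson correlation of log2 CPM over the 11 libraries, which share mice, fractions and the departure of mouse 4, so the values describe these libraries only. *Dnmt3a* was closest to *Mdm1* (*r*=0.99), *Araf* (0.99) and *Nsd3* (0.99). *Dnmt1* was closest to *Skil* (0.97), *Apobec3* (0.96) and *Aurkb* (0.96), and *Dnmt3b*, less closely, to *Gm38020* (0.95), *Gm17552* (0.93) and *Rbis* (0.93). *Tet2* followed *Dot1l* (0.99), *Clk2* (0.98) and *Kmt5c* (0.98), *Tet3* followed *Dot1l* (0.98), *Trmt13* (0.98) and *Mcts1* (0.98), and *Tet1* followed *Cdk17* (0.95), *Col7a1* (0.91) and *Tmem86b* (0.91). *Uhrf1* was closest to *Cdt1* (0.96), *Iqgap3* (0.96) and *Diaph3* (0.95), *Trim28* to *Grn* (0.97), *Clic1* (0.97) and *S100a13* (0.97), and *Zfp57* to *Jakmip2* (0.98), *Gria2* (0.98) and *Cth* (0.97).

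Among the 9 genes the closest pair was *Tet2* and *Tet3* (*r*=0.97 over 11 libraries), whose highest values were both in mouse 4. *Uhrf1* and *Dnmt1* had an *r* of 0.80, with the highest values of both in the non-beta library of mouse 1. *Dnmt3a* and *Trim28* had the most negative value (−0.88).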

How the data were processed

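The measurements were RNA-seq counts per gene in 11 libraries. Reads were mapped by the authors with STAR 2.7.1a (mm10 build), and the counts were deposited as whole numbers without normalisation. The strand setting is not given in the sources used here. No pair of libraries was identical, and 0 columns were left unused. Counts were analysed in R 4.3.3 with edgeR 4.0.16 (quasi-likelihood test, TMM, filterByExpr by fraction with its minimum count of 10, 17424 genes kept), with all 11 libraries in one fit and a block for the mouse. Benjamini-Hochberg adjustment ran over all tested genes, and the threshold for a call was 0.01. CPM used TMM-scaled totals, and log2 CPM a prior count of 2.

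Fractions were paired by the replicate number of the labels, which the study's text gives as an individual mouse. Deviations of beta cell fractions of one mouse correlated at 0.182 to 0.658 (mean 0.314, 4 pairs), and those of different mice at −0.103 on average (12 pairs). The tests were checked on simulated data, where edgeR missed most of the differences that had been put in. Alternatives were DESeq2 1.42.0, RLE scaling, no filter, no block, an adjusted *p* below 0.05, a 2-fold minimum, hormone genes left out, beta cell libraries alone, and each mouse left out.

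The 9 genes and the lists (5 partner lists, proliferation, and markers of islet and other pancreatic cells) were chosen with earlier results of these data known. By rule, the text names the 9 genes, *Nnat*, the 3 partner genes with the smallest *p* in each direction (called, and changed alike in mice 1 to 3), any called between beta cell fractions, *Mki67*, *Top2a*, *Pcna* and *Mcm2*, and the 3 genes most like each of the 9. Gene positions came from GENCODE release 21 and promoters from RefSeq (GRCm38.p6), which held a window for 9 of the 9 genes. Overlapping genes on opposite strands may share reads.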

Additional observations from a re-analysis of the deposited data

Results flagged for a closer look

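Of 18 groups of 4 beta cell libraries (9 genes in each fraction), 4 had a sample far from the others by Dixon's criterion, each time mouse 4 in the libraries labelled NNAT-positive. *Dnmt3a* was at 185.5 CPM there with the next library at 121 CPM, and *Tet2* at 74.8 CPM with the next at 14.0 CPM. *Tet3* was at 48.2 CPM with the next at 22.03 CPM, and *Zfp57* at 0.228 CPM with the others at 0, where any value above 0 would have been marked. Chance marks about 1 group in 20 when groups are independent. These groups share libraries, and all marked values come from 1 library, so their number cannot be set against that rate. The same mouse was also highest for these genes in the libraries labelled NNAT-negative, where the gap stayed under the critical value. No difference of effect between groups was tested.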

How the results depend on the processing

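Of the values for the 9 genes, 59 of 80 kept direction and side of the threshold for beta against non-beta cells (7 were no longer called, 9 became called, 5 changed sign), and 72 of 88 between the beta cell fractions (16 changed sign, none called). For each beta cell fraction against non-beta cells, 63 (labelled NNAT-positive) and 66 (NNAT-negative) of 80 did (6 and 5 changed sign). *Dnmt3a* stayed called higher in beta than in non-beta cells in 9 of 9 refits, but not with a 2-fold minimum, where *Zfp57* alone was called. No value that changed sign was called.

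Genes called for beta against non-beta cells were 6 with DESeq2, 5 with RLE scaling, 6 below an adjusted *p* of 0.05, 1 beyond 2-fold and 1 to 3 without each mouse (main value 3). For the libraries labelled NNAT-positive against non-beta cells they were 6, 3, 5, 0 and 1 to 2, and for those labelled NNAT-negative 5, 2, 5, 0 and 1 to 2 (main value 2 in each). In the same order, all tested genes called were 8549, 7123, 9147, 4377 and 5060 to 6687 for beta cells (main value 7159). They were 7640, 5932, 8262, 3765 and 4104 to 5334 for labelled NNAT-positive (main value 6072). For labelled NNAT-negative they were 7949, 6349, 8552, 4056 and 4392 to 5704 (main value 6420). Partner genes called for beta against non-beta cells were 33 with DESeq2 (10 higher, 23 lower), 31 below 0.05, 8 beyond 2-fold and 14 to 19 without each mouse (main value 20). Between the beta cell fractions 0 of the 9 genes and 0 partner genes were called under every alternative run. Over all tested genes that comparison called 9, but 137 with DESeq2, 30 with no filter, 18 below 0.05, 5 with hormone genes left out, 1 without the block and 0 to 5 without each mouse.

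Without the replicate block, the numbers of genes called were 1 for each beta cell fraction against non-beta cells, *Dnmt1* losing its call. Of all tested genes 5165 (labelled NNAT-positive) and 5519 (NNAT-negative) were called in this way. Signs changed for *Tet2* (log2 fold change 0.97 for beta, 1.07 for labelled NNAT-positive and 0.87 for labelled NNAT-negative against non-beta cells), *Tet3* (0.25, 0.28 and 0.21) and *Dnmt3b* (0.17, 0.33 and 0.0075), and between the beta cell fractions for *Uhrf1* (−0.049) and *Zfp57* (0.055). *Zfp57* lost its beta call (adjusted *p* 0.0891) and *Uhrf1* gained one (0.00438).

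Between the beta cell fractions *Tet3* also changed sign with DESeq2 (-4.21e-05), RLE scaling (-0.000385) and hormone genes left out (-0.00288), and *Uhrf1* in beta cell libraries alone (−0.28). Without each mouse in turn, values between the fractions ranged from −0.082 to 0.019 for *Dnmt1*, −0.045 to 0.69 for *Dnmt3b*, −0.19 to 0.047 for *Tet1*, −0.070 to 0.31 for *Tet2*, −0.064 to 0.13 for *Tet3*, −0.52 to 0.50 for *Uhrf1* and −2.58 to 0.37 for *Zfp57*. In the same way, values for beta, labelled NNAT-positive and labelled NNAT-negative against non-beta cells ranged from −0.31 to 0.20, −0.15 to 0.17 and −0.47 to 0.23 for *Tet2* and from −0.27 to 0.021, −0.21 to 0.0043 and −0.34 to 0.039 for *Tet3*, and for labelled NNAT-positive from −0.27 to 0.14 for *Dnmt3b*. The cause of these changes was not tested. *Zfp57* gave no value with hormone genes left out or in beta cell libraries alone, where it did not pass the filter. Depth limits *Zfp57*, with 0 counts in 5 of 8 beta cell libraries. The median log2 fold change of all genes moved by over 0.1 only with no filter, for labelled NNAT-negative against non-beta cells (−0.16). That setting also changes the genes over which the median is taken, so the shift does not measure scaling alone. With the block, p-values measure the spread between libraries once the differences between mice are taken out, and beta against non-beta cells rests on mice 1 to 3.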
